A study of Homo sapiens with 8 samples.

Results

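The sgRNAs described here are those at crowded lncRNA loci, where the library lists 4 or more separate transcript IDs that start close together. Unique target IDs were sorted by chromosome and transcription start site (TSS), and IDs whose TSS lay within 5000 bp of the next were chained into 1 locus. Chains of 4 or more IDs gave 34 loci on 12 chromosomes with 174 target IDs and 910 sgRNAs, out of 620 loci, 957 IDs and 6389 targeting sgRNAs. The deposited counts also list 473 non-targeting sgRNAs, 6862 sgRNAs in all. The study describes a larger designed library, and here the library means the sgRNAs that the deposited counts list. The rule used positions only and no counts. Of the 34 loci, 19 had exactly 4 IDs and 1 had 10, the TSS of a locus spanned 11 to 15311 bp (median 2693 bp), and 6 loci had IDs on both strands. A locus carried 10 to 76 sgRNAs, and 169 of the 174 IDs are T-numbered transcripts that the files do not pair with gene symbols.

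CRISPR interference (CRISPRi) uses a catalytically dead Cas9 (dCas9) joined to KRAB, a repressor domain. The sgRNA carries it to DNA near a gene start, where transcription is then dampened. LncRNA genes often have several alternative first exons and overlapping isoforms, so 1 silenced promoter can feed many annotated transcripts, and sgRNAs listed for different IDs can sit side by side on the same DNA. Where a transcript from such a promoter is needed for growth, several sgRNAs placed around its start are expected to become rarer together as the cells divide. At a crowded locus this can be read at 3 levels, which are the single sgRNA, the target ID (isoform) and the pooled locus.

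The screen was done in SW620, an established human colorectal adenocarcinoma line that expressed dCas9 with KRAB, and the pooled library was delivered by lentivirus. Puromycin kept the cells that had taken up a vector, and the low multiplicity was meant to leave 1 sgRNA per cell. Separate infections gave the replicates. All cells carried dCas9 and 1 library, so that the groups differ in time only. Genomic DNA was taken from 4 libraries at day 0 and from 4 libraries after culture, which the sample titles place at day 17 and the cultured time field at 18 days. The deposited values are read counts per sgRNA, with totals of 3417248 to 3999875 per library. The crowded loci took 13.9% to 14.1% of the counts in every library. Counts are given below as RPM, the reads of an sgRNA scaled to 1e6 reads of its library, and fold changes are day 17 over day 0 on the log2 scale, with a standard error (SE) from edgeR. Adjustment for multiple tests followed Benjamini and Hochberg and covered all sgRNAs, all loci or all IDs tested, and a call is an adjusted p below 0.05.

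The sgRNAs that passed the test are printed first, because the comparisons below turn on single sgRNAs rather than on whole loci. Capitals mark the last 12 bases, the part of the spacer next to the PAM.
YLQ7162: ccctgcgaTGGCCCGGGAAG
YLQ7166: ccttcctcCACCCAAGTCGG
YLQ5282: tgaggaccGGAGGCGGGGAG
YLQ1958: caaggcagCGCCCACACCCG
YLQ2773: gagccctcCGGGAGAGTCTG
YLQ2788: taatcagaAGGTGAGAGGGT
YLQ2834: acagtattGGGCAGCGGGGA
YLQ6242: cacgaagcAGTAACCCTCCA
YLQ117: aaactcagATCAAAGGCCGA

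Beside 4 of them stand their nearest tested neighbours, whose sites lie close by on the same DNA. Where sites overlap, as for YLQ7166 and YLQ7167, the spacers share those bases, read on the same or on opposite strands. The first pair flanks YLQ1958 with sites that start 20 bp away on either side, the second pair YLQ5282 at 18 and 37 bp, the third pair YLQ7166 at 14 and 29 bp, and the fourth pair YLQ6242 at 19 and 22 bp.
YLQ1957: gtcgggttGCGGAGAGCCCC
YLQ1959: aactccttACCCCAGCTGCC
YLQ5281: agtgggggTAGGAGTTTGGC
YLQ5283: cgtaaccaGACACCGAGGCT
YLQ7167: gagtgagcGCTCCTCCGACT
YLQ7165: gtatacggGAGAAAAAGTGG
YLQ6243: gtggggtaAGATGGAGAACC
YLQ6241: gtcagtgcGTTGGTAGGAGT

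Of the 910 sgRNAs, 871 had enough counts to be tested, 8 were lower at day 17 and 1 was higher. Over all 6587 tested sgRNAs of the library, 0.698% were lower and 0.0759% were higher, against 0.918% and 0.115% of the crowded loci, shares close to the background. The 8 lower sgRNAs lay at 6 loci and the higher one at a seventh, so that 27 of the 34 loci held no called sgRNA. Over the 687 sgRNAs with at least 100 counts on average at day 0, the log2 fold changes had a median of 0.01 and an SD of 0.213, and the 4123 such sgRNAs of the other targeting sgRNAs had a median of 0.01 and an SD of 0.217.

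As pooled sgRNAs, 1 of the 34 loci was lower and none was higher, where 0.645% of all 620 loci were lower and 0.0% higher. By edgeR at an unadjusted p below 0.05, 3 of the 34 loci were above 0, out of 40 of the 620, and DESeq2 also called none of the 34 higher. Of the 171 tested IDs, 2 were lower and none was higher, where 0.839% of all 953 tested IDs were lower and 0.0% higher. At an unadjusted p below 0.05 by edgeR, 5 of the 171 IDs were above 0, out of 42 of the 953, and DESeq2 called 1 higher. In 5 of the 34 loci the sgRNAs differed from one another in their change over time (14.7%, against 6.13% of all 620 loci). In 2 the isoforms differed (5.88%, against 2.16% of the 185 loci with IDs to compare). The 34 loci hold 910 of the 6389 targeting sgRNAs, so on average more sgRNAs and IDs enter each of these tests than elsewhere. These shares were not matched for that number, and a trait of crowded loci was not tested. The count of loci with differing sgRNAs turned on single libraries. It was 1 without day 0 replicate 1 or without day 0 replicate 3, 2 without day 0 replicate 4, 3 without day 0 replicate 2 and 8 without day 17 replicate 1. Counts of pooled IDs and of loci with differing isoforms moved likewise, as given in the closing section.

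The locus that fell as a whole has 4 IDs on the minus strand of chromosome 1, T030274, T030275, T030276 and T030292, with TSS from 214156326 to 214161128 in the files' coordinates. T030274 starts 4802 bp from the last of the other IDs, which form a tight cluster. The pooled 19 sgRNAs stood at 2037, 2110, 2141 and 2101 RPM in day 0 replicates 1 to 4 and at 1935, 1725, 1819 and 1769 RPM in day 17 replicates 1 to 4. Every day 17 library was below every day 0 library. The means were 2097 ± 43.5 RPM and 1812 ± 90.7 RPM (SD, n = 4 each). The log2 fold change was -0.20 (SE 0.0348, edgeR adjusted p = 9.86e-05), and the exact two-sided permutation test over the 8 libraries gave p = 0.0286, the smallest it can give. The libraries also did not overlap at 2 loci that edgeR did not call, T292907 (higher at day 17, adjusted p = 0.458) and T076250 (lower, adjusted p = 0.84), with the same permutation p. That makes 3 of 34 loci, where 4.84% of all 620 loci did not overlap in either direction. Of its 15 sgRNAs with at least 100 counts, 12 had a fold change below 0, with a mean of -0.21 and a range from -0.74 to 0.13.

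YLQ7166, placed 226 bp downstream of the TSS of T030275, was the most abundant sgRNA of this locus with 22.1% of its day 0 counts. It was at 453, 478, 453 and 464 RPM at day 0 and at 368, 305, 352 and 314 RPM at day 17, without overlap (log2 fold change -0.45, SE 0.0733, edgeR adjusted p = 0.000107). YLQ7167, whose site starts 14 bp away and overlaps it, had a log2 fold change of 0.01, with 131.9 RPM at day 0 and 132.0 RPM at day 17. These 2 sgRNAs on overlapping bases had unlike values. YLQ7165, 29 bp away, had a value of -0.52 that did not pass the test, from a mean of 39.2 counts at day 0.

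YLQ7162, the other called sgRNA here, is placed 77 bp downstream of T030274. It started from few reads, with counts of 30, 34, 33 and 61 at day 0, and had 1, 0, 3 and 7 counts at day 17. No day 17 library reached a day 0 library, and the log2 fold change of -3.66 (SE 0.76, edgeR adjusted p = 0.00451) has the widest error of the 9 called sgRNAs. The call was lost without day 0 replicate 4 (adjusted p = 0.0655). The nearest tested neighbours, YLQ7161 at 23 bp and YLQ7163 at 39 bp, gave 0.13 and -0.09 on the log2 scale and did not pass.

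At the ID level T030275 fell, from 1006 ± 44.0 RPM to 825 ± 58.6 RPM over 7 sgRNAs (SD, n = 4 each, log2 fold change -0.27, SE 0.0512, edgeR adjusted p = 0.00134). All 7 of its sgRNAs had values below 0, from -0.74 for YLQ7170 (adjusted p = 0.193) to -0.04. T030274, with 9 sgRNAs, had a pooled value of -0.15 (SE 0.0483) that did not pass (adjusted p = 0.218). The difference between the isoforms of this locus did not pass either (diffSpliceDGE adjusted p = 0.612), while the difference among its sgRNAs did (adjusted p = 0.00358). The call of T030275 depended on YLQ7166, its most abundant sgRNA. Without it the pooled value of the other sgRNAs of this ID was -0.14 (edgeR adjusted p = 0.58). Leaving out an abundant sgRNA that fell weakens the sum by construction, so this does not place the fall in YLQ7166 alone. The equal-weight mean over the 7 sgRNAs was -0.40 and did not pass (limma adjusted p = 0.296). The call for differing sgRNAs was lost at a minimum of 100 counts at day 0, a filter that removes YLQ7162 among others (adjusted p = 0.319), and without day 0 replicate 3 or 4 (adjusted p of 0.0603 and 0.118).

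The call of the whole locus depended on its called sgRNAs. Without its most abundant sgRNA the pooled log2 fold change was -0.13 (adjusted p = 0.0681), and without both called sgRNAs it was again -0.13 (adjusted p = 0.349), a setting added after the data were seen. With each sgRNA weighted equally the mean was -0.42 (limma adjusted p = 0.0149), where the few reads of YLQ7162 count as much as the others. Both settings that leave sgRNAs out kept the direction and lost the call. Leaving out sgRNAs that fell in these same data shrinks the pooled fall by construction.

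At the other 33 loci the pooled log2 fold changes lay between -0.03 and 0.07, with SE between 0.0167 and 0.0483 over the 34, and 27 of the 34 loci were at or above 0. The median over the 34 loci was 0.02, and that over all 620 loci was 0.01. Of the 7 loci below 0, none but that of T030274 was below -0.03.

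At the WT1 and WT1-AS promoters, 1 sgRNA fell between 2 abutting ones that did not pass. WT1 encodes a zinc finger transcription factor of kidney and gonad development that is altered in Wilms tumour, and WT1-AS is the lncRNA read from the opposite strand. The locus has 5 IDs on the plus strand of chromosome 11 within 166 bp (T056743 to T056760) and 17 sgRNAs. Of these, 9 match a RefSeq promoter window of WT1 and 10 one of WT1-AS, a window being 250 bases before to 50 bases after the gene start. The window of WT1-AS that holds the called sgRNA is chr11:32435268-32435567 on the plus strand of GRCh38.p14 (RefSeq). Capitals mark the site of YLQ1958, which is read on the strand opposite to WT1-AS, and the sites of YLQ1957 and YLQ1959 abut it on the left and on the right.
WT1-AS promoter: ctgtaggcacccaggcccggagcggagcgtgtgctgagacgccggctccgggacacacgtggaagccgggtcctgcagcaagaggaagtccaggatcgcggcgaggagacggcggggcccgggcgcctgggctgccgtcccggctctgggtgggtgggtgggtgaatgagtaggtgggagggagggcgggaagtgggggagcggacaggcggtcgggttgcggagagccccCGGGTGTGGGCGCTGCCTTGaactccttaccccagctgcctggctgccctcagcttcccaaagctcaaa

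YLQ1958 was at 96.3, 83.8, 97.4 and 90.6 RPM at day 0 and at 62.8, 46.8, 31.6 and 27.8 RPM at day 17. The groups did not overlap, and the log2 fold change was -1.11 (SE 0.2, edgeR adjusted p = 0.00064). YLQ1957 and YLQ1959, whose sites start 20 bp before and after, had log2 fold changes of -0.03 and -0.08. All 3 sites lie in the usual sgRNA window of every one of the 5 IDs, so that no ID sets them apart. The sgRNAs of the locus differed in response (adjusted p = 0.0016) and its isoforms did not pass (adjusted p = 0.991). The pooled locus was at 1779 ± 54.6 RPM at day 0 and 1792 ± 84.0 RPM at day 17 (SD, n = 4 each). The call for differing sgRNAs was just lost without day 0 replicate 1 (adjusted p = 0.0517) and without day 0 replicate 3 (adjusted p = 0.0535).

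A similar picture was measured at KAZALD1, which encodes a secreted protein related to insulin-like growth factor binding proteins. Its locus on chromosome 10 has 4 IDs on the minus strand within 695 bp (T047479 to T047482), 3 of its 19 sgRNAs match the RefSeq promoter window of KAZALD1 and 7 that of LOC107984262. The KAZALD1 window is chr10:101061739-101062038 on the plus strand of GRCh38.p14, and capitals mark the site of YLQ5282, read on the strand opposite to KAZALD1.
KAZALD1 promoter: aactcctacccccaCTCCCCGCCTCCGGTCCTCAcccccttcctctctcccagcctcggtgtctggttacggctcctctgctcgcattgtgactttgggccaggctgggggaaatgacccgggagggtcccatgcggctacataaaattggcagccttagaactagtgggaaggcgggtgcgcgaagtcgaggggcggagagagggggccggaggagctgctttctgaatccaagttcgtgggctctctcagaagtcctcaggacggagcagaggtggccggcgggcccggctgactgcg

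YLQ5282 lies 20 bp downstream of the TSS of T047481 and is 75% GC. It was at 44.3, 58.5, 45.2 and 44.5 RPM at day 0 and at 15.1, 18.8, 20.6 and 12.6 RPM at day 17, with no overlap (log2 fold change -1.51, SE 0.261, edgeR adjusted p = 0.000302). This was the largest drop among the called sgRNAs with at least 100 counts at day 0. YLQ5281, 18 bp away, had a value of -0.30, and YLQ5283, 37 bp away, one of 0.25, and neither passed. The sgRNAs of the locus differed (adjusted p = 0.00559), a call lost without day 0 replicate 1 (adjusted p = 0.062), day 0 replicate 2 (0.146) or day 17 replicate 4 (0.0662). Its isoforms did not pass (adjusted p = 0.246), with pooled values from -0.28 for T047481 to 0.11 for T047482, and the mean over its 13 sgRNAs with at least 100 counts was -0.12, the third lowest of the 34 loci, against a median of 0.01.

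On chromosome 16, 5 crowded loci lie within a stretch from TSS 50406210 to 50567089. The locus with the most IDs of all is among them, with 10 IDs, 9 on the plus and 1 on the minus strand, and 76 sgRNAs over 15311 bp from T132094 on. Of its sgRNAs, 7 match the promoter window of LINC02178, an intergenic lncRNA. Its pooled sgRNAs stood at 8659 ± 122 RPM at day 0 and 8644 ± 117 RPM at day 17 (SD, n = 4 each), and the log2 fold change was 0.01 (SE 0.018).

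Within that locus 2 of 75 tested sgRNAs fell. YLQ2788, 111 bp downstream of T132094, was at 61.8, 46.3, 53.3 and 70.8 RPM at day 0 and at 30.4, 23.1, 14.5 and 26.9 RPM at day 17 (log2 fold change -1.28, SE 0.242, edgeR adjusted p = 0.00113). Its nearest neighbours, YLQ2789 at 11 bp and YLQ2787 at 58 bp, had values of 0.32 and 0.55, neither of which passed. YLQ2834, 89 bp downstream of T132105, was at 106, 106, 88.2 and 97.8 RPM at day 0 and at 63.8, 57.7, 29.9 and 64.1 RPM at day 17 (log2 fold change -0.87, SE 0.186, edgeR adjusted p = 0.00596). The groups did not overlap for either sgRNA. The call of YLQ2834 was lost without day 0 replicate 1 (adjusted p = 0.0551). YLQ2833 at 25 bp and YLQ2835 at 28 bp had values of -0.17 and 0.42. No ID of the locus passed, with pooled values between -0.11 and 0.10. The sgRNAs differed (adjusted p = 0.0157). This was lost without any 1 of the 4 day 0 libraries, with adjusted p of 0.763, 0.0988, 0.296 and 0.317 without day 0 replicates 1 to 4. Over all alternative settings at chains of 5000 bp, the call held in 9 and was lost in 6.

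The isoforms differed at 2 small loci of the same stretch, and in both the ID that stood apart carried a single sgRNA. At the locus of T132088, 4 plus-strand IDs start within 108 bp and every one of the 12 sgRNAs lies in the sgRNA window of all 4. T132090 has only YLQ2773, 42 bp upstream of its TSS, which was at 87.6, 72.3, 81.0 and 81.5 RPM at day 0 and at 57.6, 30.0, 55.4 and 39.2 RPM at day 17. The groups did not overlap (log2 fold change -0.81, SE 0.195, edgeR adjusted p = 0.025 as an sgRNA and 0.0293 as an ID).

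The other 3 IDs of that locus had pooled values of -0.01, 0.06 and 0.05. YLQ2771, 29 bp from YLQ2773, had a value of 0.02 and YLQ2774, 60 bp away, one of -0.25, and neither passed. The isoforms differed (adjusted p = 0.00975) and so did the sgRNAs (adjusted p = 0.011). Because T132090 holds 1 sgRNA, a difference between isoforms and a difference between sgRNAs cannot be told apart there. The isoform call was lost without day 0 replicate 1 (adjusted p = 0.103) and without day 0 replicate 2 (0.0679). The sgRNA call was lost without day 0 replicate 1, 3 or 4 and without day 17 replicate 2 (adjusted p of 0.127, 0.185, 0.086 and 0.0905). Over all alternative settings at chains of 5000 bp, it held in 9 and was lost in 6. The call of YLQ2773 itself was lost without day 0 replicate 1, 3 or 4 or day 17 replicate 2 or 4, with values between -0.81 and -0.65.

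The locus of T132111 is the most crowded, with 4 minus-strand IDs whose TSS span 11 bp. T132113 has 1 sgRNA, YLQ2893, which was at 38.3, 51.5, 49.6 and 53.1 RPM at day 0 and at 12.5, 27.4, 22.3 and 35.1 RPM at day 17. The groups did not overlap, but its log2 fold change of -0.97 (SE 0.264) did not pass (edgeR adjusted p = 0.08). YLQ2899, the highest of the locus with at least 100 counts, had a value of 0.13. As an ID, T132113 did not pass either (edgeR adjusted p = 0.0669). T132115 has the same TSS and 1 sgRNA, with a value of -0.01, and T132112, also with 1 sgRNA, had -0.22. T132111 itself, with 8 sgRNAs, had a pooled value of 0.00 (SE 0.0288). The isoforms differed (adjusted p = 0.00975) and the sgRNAs did not pass (adjusted p = 0.112). Because T132113 holds 1 sgRNA, a difference between isoforms and one between sgRNAs cannot be told apart here either. The isoform call was lost without day 0 replicate 2 (adjusted p = 0.0783), without day 17 replicate 1 (0.0725) and in limma voom with diffSplice (0.0577). The mean over its 10 sgRNAs with at least 100 counts was -0.16, the second lowest of the 34 loci, with a median of -0.03.

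A locus on chromosome 5 has 9 IDs and 61 sgRNAs over 12217 bp, of which only 1 sgRNA matches the promoter window of PSD2-AS1. YLQ6242, 11 bp downstream of the TSS of T289965, was at 261, 231, 270 and 254 RPM at day 0 and at 138, 192, 156 and 176 RPM at day 17. Here too the groups did not overlap (log2 fold change -0.61, SE 0.105, edgeR adjusted p = 0.000302). YLQ6243 at 19 bp and YLQ6241 at 22 bp had values of 0.04 and 0.30, neither of which passed. The pooled locus had a log2 fold change of 0.00 (SE 0.0167), and neither the difference among its sgRNAs nor that among its isoforms passed (adjusted p of 0.105 and 0.54).

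The single higher sgRNA was YLQ117, 267 bp downstream of T316874 at a locus of 5 plus-strand IDs on chromosome 7. It was at 27.5, 39.0, 46.4 and 22.9 RPM at day 0 and at 38.9, 75.3, 74.3 and 63.8 RPM at day 17. The lowest day 17 library lay within the range of the day 0 libraries, so the groups overlapped, and the exact two-sided permutation test gave p = 0.0857. The log2 fold change was 0.91 (SE 0.233, edgeR adjusted p = 0.0479). The call was lost with total counts as the scaling (adjusted p = 0.0552), with factors from the non-targeting sgRNAs (0.0527), and without any 1 of day 0 replicates 1, 2 and 4 and day 17 replicates 2, 3 and 4 (0.331, 0.071, 0.417, 0.22, 0.206 and 0.0741). Its neighbours YLQ116 at 19 bp and YLQ118 at 29 bp had values of 0.22 and 0.21 and did not pass.

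The 3 loci with the highest mean log2 fold change over sgRNAs with at least 100 counts were those of PHLDA1-AS1 on chromosome 12 (0.12 over 8 sgRNAs), of SLIT3-AS1 on chromosome 5 (0.08 over 13) and of T056985 on chromosome 11 (0.05 over 22). The first 2 are antisense lncRNAs named after PHLDA1, a pleckstrin homology protein, and SLIT3, an axon guidance ligand. Only 2 sgRNAs match the promoter window of PHLDA1-AS1 and 1 that of SLIT3-AS1. No sgRNA of these loci passed. Among the sgRNAs with at least 100 counts, the values at PHLDA1-AS1 ran from -0.02 for YLQ4224 to 0.48 for YLQ4220, at SLIT3-AS1 from -0.02 for YLQ6751 to 0.41 for YLQ6739, and at T056985 from -0.15 for YLQ2042 to 0.33 for YLQ2028. With sgRNAs of fewer counts included, the tested ones ran from -0.18 to 0.58 at SLIT3-AS1 and from -0.45 to 0.37 at T056985. The pooled loci had values of 0.07, 0.07 and 0.03 (SE 0.0483, 0.0321 and 0.0237), with adjusted p of 0.711, 0.458 and 0.714.

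Over the 27 loci without a called sgRNA, the sgRNAs with at least 100 counts ran from -1.08 for YLQ1880 of T076252 (SE 0.324, adjusted p = 0.187, groups overlapping) to 0.51 for YLQ2938 of T132150 (SE 0.249, adjusted p = 0.801). Several of these loci carry well known genes. At H19, an imprinted lncRNA expressed in fetal tissues, 5 IDs and 30 sgRNAs gave a pooled value of 0.01 (SE 0.0229), with tested sgRNAs from -0.38 to 0.53. At BTG1 and its divergent transcript BTG1-DT (2 and 1 matching sgRNAs), where BTG1 encodes an antiproliferative factor, the pooled value was 0.06 (SE 0.0244, edgeR adjusted p = 0.375). One of its sgRNAs, YLQ4994, had a value of -0.97 (SE 0.263) with groups that did not overlap, but it did not pass (adjusted p = 0.08). At LINC01770 and VWA1, the latter encoding an extracellular matrix protein, the pooled value was -0.01, and YLQ299 had a value of -0.78 (adjusted p = 0.128). At the locus of T276921 on chromosome 5, 7 IDs start within 153 bp, and its 14 sgRNAs with at least 100 counts lay between -0.19 and 0.19.

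The layout of the sgRNAs is given as a description, and the sharing of windows follows from the way the loci were chosen. Of the 910 sgRNAs, 505 (55.5%) lay in the sgRNA window of 2 or more IDs of their locus, the window being -250 to 500 bp from a TSS as the library uses it. The IDs of these loci had fewer sgRNAs of their own, with a median of 6 against 8, and 55 of 174 had only 1 or 2 (31.6%, against 8.81% of the other 783 IDs). Their spacers had a median GC content of 55% against 50%. The 9 called sgRNAs ranged from 45% to 75% GC with a median of 65%, and lay between -42 and 267 bp from the TSS. Of 390 tested sgRNAs in 1 window 3 were lower and 1 higher, of 347 in 2 or 3 windows 3 were lower, and of 134 in 4 or more windows 2 were lower, with medians of 0.01, 0.01 and 0.02.

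Agreement between sgRNAs of the same locus was measured in 2 ways. Among sgRNAs with at least 100 counts, the intraclass correlation of the log2 fold changes was 0.0242 by locus (687 sgRNAs, 34 loci). Without the T030274 locus it was 0.00489. That locus was left out because its pooled sgRNAs fell in these same data, a choice that by itself tends to lower the value. By target ID the intraclass correlation was 0.00732 (648 sgRNAs, 126 IDs), and over all 620 loci of the library it was 0.026. In the 84 pairs whose sites start less than 20 bp apart, and so overlap, the correlation was 0.282, and in the 836 pairs 20 to 99 bp apart it was -0.0131. The pairs share loci and sgRNAs and both members of a pair come from the same 8 libraries, so these are descriptions without a test. The median absolute difference within a pair was 0.151 for overlapping sites and 0.154 at 20 to 99 bp.

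Pairs that hold a called sgRNA were chosen for 1 extreme member, so the partners are given as values without a comparison. Overlapping partners were YLQ7167 (0.01), YLQ116 (0.22), YLQ5281 (-0.30), YLQ2789 (0.32) and YLQ6243 (0.04), the last 3 with fewer than 100 counts at day 0. In the 18 pairs at 20 to 99 bp where both sgRNAs had at least 100 counts, the partners had a median of 0.04 and ran from -0.28 to 0.30. No pair of that depth under 500 bp apart held 2 called sgRNAs. With the called sgRNAs left out, a setting added after the data were seen, none of the 34 loci passed for sgRNAs that differ (lowest adjusted p = 0.642), with 2 of the 34 and 42 of 620 at an unadjusted p below 0.05. Leaving out sgRNAs chosen for their change lowers such differences by construction, and each of the 5 loci called for differing sgRNAs held 1 or 2 called sgRNAs.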

How the data were processed

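Integrated sgRNAs were amplified by 2 rounds of PCR, and the authors deposited unnormalized read counts, with 1 file per library. FastQC 0.11.2, Bowtie and hg38 are named in the submitters' processing notes, with no role. The rule for assigning reads to sgRNAs was not given in the sources used here. File positions are not those of GRCh38, and their build is not named, so file positions were printed unconverted. The start position is the leftmost base of a site.

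Counts per sgRNA, per locus (sum) and per target ID (sum) were tested with edgeR 4.0.16 (R 4.3.3, filterByExpr, TMM, robust quasi-likelihood fit, day 17 against day 0 as the single factor, 4 libraries each). Whether sgRNAs or IDs of a locus differ in change was tested with diffSpliceDGE. P values were adjusted over all units of each test. Biological coefficients of variation were 0.183 for sgRNAs, 0.0436 for loci and 0.0543 for IDs. Of the 910 sgRNAs, 39 did not pass the count filter. The reads are not counted molecules, so depth covers counting error only. The infections were independent per the study's methods, and p values measure the spread between these libraries. The steps were tested on simulated counts. In 5 tables with no change, the test of differing isoforms gave 2 calls. Those of differing sgRNAs and of pooled loci gave 1 each, and those of sgRNAs and of IDs gave 0. Of 50 simulated sgRNAs each at folds of 0.25, 0.5, 0.75 and 1.5, 98%, 80%, 28% and 56% were called. An sgRNA that did not pass can therefore still have changed.

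Of the 910 sgRNAs, 104 matched a RefSeq promoter window of GRCh38.p14 exactly, at 15 loci. Genes were named from these matches, and the other 19 loci have no symbol here. A match says only that the sgRNA sequence lies in the window.

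Loci described in detail are those with a call at any level, the 3 lowest and 3 highest mean log2 fold changes, the locus with the most IDs and the most crowded one. Named sgRNAs are the called ones and up to 2 nearest tested neighbours, or else, in a locus with no call, the lowest and highest with at least 100 counts at day 0. H19, BTG1, VWA1, T276921 and their sgRNAs, and YLQ7170, YLQ1880 and YLQ2938, were named after their values were seen. The members and lists were chosen with earlier results of these data known. Alternatives were total counts, non-targeting factors, the replicate block, each library left out, other count filters, DESeq2 1.42.0, limma 3.58.1, the two-tailed test of the study's methods, taken on log2(RPM + 1), other weights of sgRNAs, and chains of 1000 and 10000 bp.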

Additional observations from a re-analysis of the deposited data

Results flagged for a closer look

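Within a group of 4 libraries, 1 library stood far from the other 3 for 11 of 122 groups checked. The groups were the called sgRNAs, their nearest tested neighbours and the 34 pooled loci, each at day 0 and day 17. Chance gives about 1 in 20 groups. The highest day 0 library of YLQ5282 was at 58.5 RPM, and all its day 17 libraries were below all its day 0 libraries. Of the neighbours, the highest day 0 libraries of YLQ2789 and YLQ2774 were at 18.8 and 30.5 RPM, the highest day 17 libraries of YLQ2787 and YLQ6243 were at 24.9 and 41.0 RPM, and the lowest day 17 library of YLQ7165 was at 0.293 RPM. Of the pooled loci, the lowest day 0 library at T292907 (SLIT3-AS1) was at 1938 RPM and the lowest day 17 library at T132094 at 8469 RPM. The highest day 17 libraries at T316874 and T132150 were at 5147 and 6230 RPM, and the highest day 0 library at T132088 was at 1618 RPM. No cause was tested.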

How the results depend on the processing

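The pooled T030274 locus stayed below 0 in every setting run at chains of 5000 bp and passed in all but 3 of them: the methods' two-tailed test (no locus lower, 0 of 34), the sums without the most abundant sgRNA (0) and without called sgRNAs (0, added after the data were seen). With chains of 1000 bp, 13 loci remained as crowded and 0 were lower, 3 sgRNAs were lower and 0 higher, and 3 loci had differing sgRNAs. The T030274 locus is not among these 13, because T030274 starts more than 1000 bp from its other IDs. That setting therefore does not retest its fall. Against 8 lower and 1 higher sgRNA, DESeq2 gave 16 and 3, the methods' two-tailed test 0 and 0, and total counts and non-targeting factors both gave 0 higher. The two-tailed test was adjusted here for all units tested. The study judged its screen by a p value and a fold change limit, with no adjustment described, so these counts do not use its criterion. Leaving out 1 library gave 6 to 9 lower and 0 to 2 higher sgRNAs (0 higher without day 0 replicates 1, 2 or 4 or day 17 replicates 2, 3 or 4, and 2 without day 17 replicate 1). For IDs that count was 1 to 3 lower (1 without any day 0 library or without day 17 replicate 2, 3 without day 17 replicate 4), for differing sgRNAs 1 to 8 loci, and for differing isoforms 0 to 3 (0 without day 0 replicate 2, 1 without day 0 replicate 1 or day 17 replicate 1, and 3 without day 17 replicate 2). DESeq2 called 4 IDs lower and 1 higher, the equal-weight mean 1 lower, and limma voom 1 locus with differing isoforms. Without called sgRNAs, 0 loci had differing sgRNAs. No named result reversed.

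The replicate block called 11 lower and 1 higher sgRNA, 1 locus, 3 IDs, 6 loci with differing sgRNAs and 2 with differing isoforms. The main fit and the permutation tests took all libraries as unpaired. Whether libraries of equal number come from the same infection is not stated. Their deviations correlated at 0.0606 to 0.122 over 5178 sgRNAs, each above that with any other number, which is a hint from the data and not the design. The cause of these changes was not tested. Depth limits sgRNAs with few reads, since a change as large as that of YLQ7162 had an SE of 0.76 from counts of 30 to 61 at day 0.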
